A study of Homo sapiens with 4 samples.

Results

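FAIRE sites at the 3′ ends of protein-coding genes were examined in H295R/TR SF-1 cells. A site was taken when its centre lay within 500 bp of the annotated end of a protein-coding gene and more than 2 kb from every annotated transcription start, on chromosomes 1 to 22 and X of GRCh37 (GENCODE release 44). This gave 206 of the 34423 sites listed for cells with basal SF-1 and 207 of the 31219 sites listed for cells overexpressing SF-1, or 413 of 65642 in all. No measured value other than the position of the site entered the choice.

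H295R/TR SF-1 is a clone of H295R adrenocortical tumour cells in which doxycycline turns on an added SF-1 (NR5A1) transgene, so that all cells derive from 1 clone and the control cells carry the transgene too. Basal cells were compared with cells given doxycycline for 3 days, with 1 FAIRE library for each of the 2 conditions. FAIRE (formaldehyde-assisted isolation of regulatory elements) recovers the DNA that stays soluble after crosslinking because few nucleosomes hold it. The lists give positions only, so sequencing depth is unknown, every difference between the conditions is between single libraries with no replicate check, and neither the SF-1 level nor the identity of the cells was checked here. All intervals are 95% intervals for counting error alone, members are not replicates of a condition, and a missing site is one that was not called, which need not be closed chromatin.

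SF-1 is a nuclear receptor that binds DNA as a monomer and controls steroid hormone synthesis in the adrenal cortex. The 3′ end of a gene is where the nascent RNA is cleaved and polyadenylated, and the DNA around the polyadenylation signal is rich in A and T and tends to be poor in nucleosomes. CTCF is a zinc finger protein found at insulators and chromatin loop anchors, many of them at accessible sites away from promoters.

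Whole sites outside every annotated exon and the motif matches of further sites are printed as examples of the motifs searched. They were picked from the named sites, and their conditions do not reflect the motif shares of the classes. Bases are from the GRCh37 reference, 5′ to 3′, with motif matches in capitals. The SF-1 motif was CAAGGTCA or CAAGGCCA, the AP-1 motif, bound by Fos and Jun proteins, was TGACTCA or TGAGTCA, and the CTCF core motif was allowed 1 mismatch, each on both strands. Whole sites follow on the plus strand, for the overexpression-only site at chr3:49709201-49709449 beyond BSN, which encodes a presynaptic scaffold protein, the overexpression-only site at chr10:103989551-103989799 between the converging genes PITX3 and ELOVL3, and the basal-only site at chr12:10344551-10344799 beyond TMEM52B, with 2 AP-1 matches.
BSN (CTCF): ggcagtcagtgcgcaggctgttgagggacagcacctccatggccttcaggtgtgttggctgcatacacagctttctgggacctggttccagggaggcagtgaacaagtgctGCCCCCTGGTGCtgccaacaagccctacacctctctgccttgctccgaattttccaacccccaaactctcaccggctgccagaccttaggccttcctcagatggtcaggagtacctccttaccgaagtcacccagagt
PITX3 and ELOVL3 (CTCF): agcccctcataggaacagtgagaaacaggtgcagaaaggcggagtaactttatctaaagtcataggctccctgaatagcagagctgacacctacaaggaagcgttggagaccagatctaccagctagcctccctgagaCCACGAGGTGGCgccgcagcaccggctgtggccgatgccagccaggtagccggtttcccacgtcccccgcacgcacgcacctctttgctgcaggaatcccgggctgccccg
TMEM52B (AP-1): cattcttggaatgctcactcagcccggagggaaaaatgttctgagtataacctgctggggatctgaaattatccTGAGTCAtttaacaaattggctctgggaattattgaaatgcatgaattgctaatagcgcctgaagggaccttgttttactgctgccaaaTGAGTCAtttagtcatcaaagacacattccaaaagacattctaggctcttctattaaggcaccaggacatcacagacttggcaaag

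The next windows of 30 bases show the match on its own strand. They are at chr19:55964544-55964573 (plus strand) for ISOC2 and chr14:23356829-23356858 (plus) for REM2, whose sites were shared by the conditions, at chr1:117117405-117117434 (plus) and chr1:117116805-117116834 (plus) for the basal-only and the overexpression-only site of IGSF3, and at chr3:150643625-150643654 (plus) for the overexpression-only site of CLRN1. The remaining windows, all from basal-only sites, are at chr12:26272410-26272439 (minus) for BHLHE41, chr9:107543310-107543339 (plus) for ABCA1, chr10:102124688-102124717 (plus) for SCD and chr9:99253878-99253907 (plus) for HABP4.
ISOC2 (CTCF): ctgccccccCCACAAGGGGGCggcactcct
REM2 (CTCF): aggggggcaCCAGCAAGGGGCcaccctttc
IGSF3 basal-only (CTCF): gtctcacagCCACTGGAGGGCaccattacc
IGSF3 overexpression-only (CTCF): ctatatgttGCAGCAGATGGCagtgaagtg
CLRN1 (CTCF): tccccagggCCAGCAGGGGGCcccgcgacc
BHLHE41 (SF-1): aagtatcttccCAAGGTCAcagagctacct
ABCA1 (AP-1): gctttattttgTGACTCAttatattacaac
SCD (AP-1): gttacaatggtTGACTCAtaccccattaac
HABP4 (AP-1): gggctgtgtcaTGAGTCAgtggctttgaag

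To ask whether gene ends carried more sites than their length would give, the sites were set against an even spread over each chromosome. The sequence that could hold them measured 13.3 Mb, or 0.469% of the genome. At the density of all sites of their chromosome 168.3 basal and 156.2 overexpression sites were expected, and 206 and 207 were found. The observed number was 1.22 times the expected one (exact Poisson interval 1.06 to 1.40) in basal cells and 1.33 times (1.15 to 1.52) in overexpressing cells. Against the density of the other sites over 2 kb from a start, which leaves out the dense promoter sites, the ratios were 1.86 (1.62 to 2.14) and 2.20 (1.91 to 2.52). Within classes of equal GC content they were 1.78 (1.55 to 2.04) and 1.91 (1.66 to 2.19). With the expectation over the chromosome, the interval took in 1 for the basal list when the window was widened to 1000 bp (0.958 to 1.18) or when only sites of at least 249 bp were kept (0.917 to 1.35), and for the overexpression list when starts were kept 5 kb away (0.966 to 1.43).

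**Figure D1:**
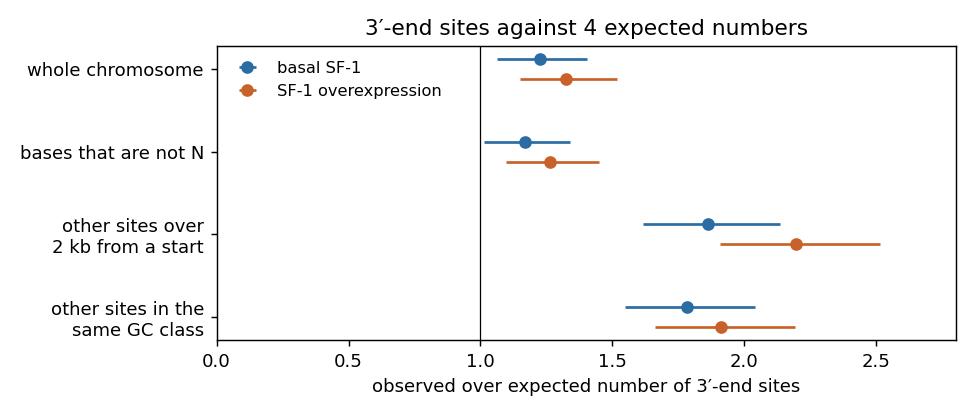
Observed over expected number of 3′-end FAIRE sites (horizontal axis, ratio) for 4 ways of computing the expected number (rows), with exact Poisson 95% intervals of the observed count as bars. All 8 ratios lie above 1, between 1.17 and 2.20.

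The sites did not form a sharp peak at the gene end. The last 500 bp of genes held 17.0 sites per Mb (14.0 to 20.4) in basal and 15.7 (12.8 to 19.0) in overexpressing cells. The preceding 4500 bp held 10.5 and 10.6 sites per Mb, so that the density ratio was 1.62 (1.32 to 1.99) and 1.49 (1.20 to 1.83). Only sequence over 2 kb from every start counted, so the zones do not hold exactly the same genes. The 500 bp beyond the end held 14.2 (11.5 to 17.3) and 15.9 (13.1 to 19.2) sites per Mb. This compared with 13.0 and 12.7 sites per Mb between 500 and 5000 bp beyond the end, ratios of 1.09 (0.876 to 1.35) and 1.25 (1.02 to 1.53). Sites were therefore denser just before the end than over the preceding 4500 bp in both lists. Beyond the end, the basal density could not be told apart from that of the following sequence. In steps of 250 bp the density was 19.6 and 17.8 per Mb from 500 to 250 bp before the end, 14.4 and 13.5 in the last 250 bp, which is also the most AT-rich step with a GC content of 39.3%, and 16.9 and 17.5 in the first 250 bp beyond. A step of similar density, with 17.4 and 16.4 sites per Mb, lay 4750 to 4500 bp before the end, and held 51 and 48 sites.

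**Figure D2:**
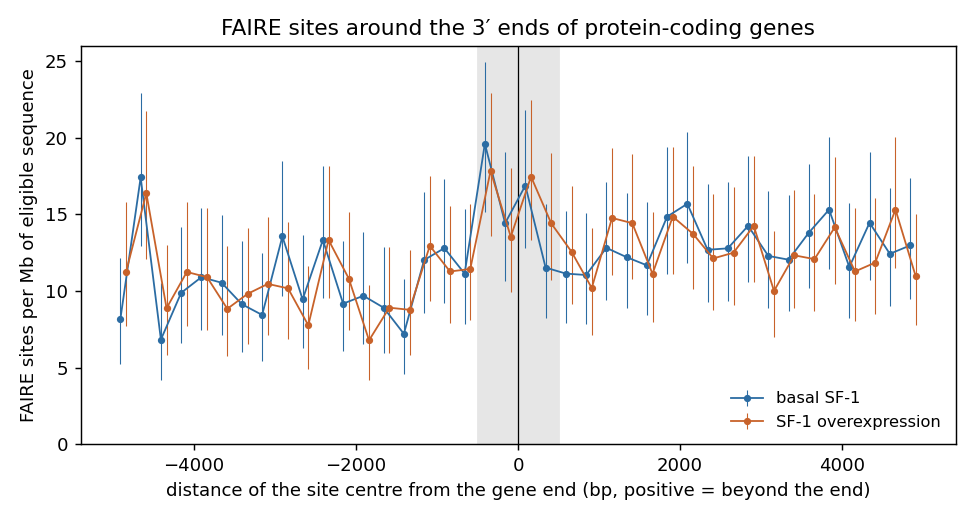
Density of FAIRE sites (vertical axis, sites per Mb of sequence over 2 kb from every start) in steps of 250 bp around the ends of protein-coding genes (horizontal axis, bp), for the basal and the overexpression list, with exact Poisson 95% intervals. The shaded window of 500 bp on either side reaches 19.6 sites per Mb, and the density stays higher beyond the end than further inside the gene.

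The 3′-end sites were a minority of the sites near gene ends. Without the rule on starts, 499 basal and 510 overexpression sites lay within 500 bp of an end, of which 293 and 303 were within 2 kb of a start. Just inside the distance limit, from 400 to 500 bp, there were 37 basal and 41 overexpression sites, and just outside, from 500 to 600 bp, there were 29 and 30. Just inside the start limit, at 2000 to 2200 bp, there were 9 and 15 sites, and just outside, at 1800 to 2000 bp, there were 9 and 7.

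Within the window the sites fell on both sides of the end. In the basal list 112 centres lay in the gene and 94 beyond it, and in the overexpression list 103 and 104. By annotation, 94 basal centres were in a 3′ UTR, 7 in a coding exon, 9 in an intron and 2 in another exon, and for overexpression the numbers were 89, 6, 7 and 1. The end itself was covered by 48 basal sites (23.3%) and 42 overexpression sites (20.3%). Centres spread evenly over the window would have covered it in 24.7% and 24.3% of cases at these widths. The polyadenylation signal AATAAA, on the strand of the gene, stood in 47 (22.8%) and 41 (19.8%) of the sites. The centre lay over another annotated gene in 48 sites of each list, and 62 and 71 sites touched no annotated exon. The counts of the signal, of overlapped genes and of sites outside exons were not set against other sequence, so they only describe these sites.

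Some of the sites lay between converging genes. Of the genes with a 3′-end site, 16 of 211 (7.58%) in the basal and 22 of 216 (10.2%) in the overexpression list had a coding gene of the opposite strand that ended within 1000 bp, against 7.10% of all eligible genes. Counted by sites rather than genes, they were 11 basal and 16 overexpression sites. The shared sites at SURF4 and SURF2, neighbours in a tight housekeeping gene cluster, and at TNFAIP1 and POLDIP2 were of this kind.

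Eligible genes were those with at least 1 base of the window over 2 kb from every start, 15079 of 20098 coding genes. A basal site was found at 211 of them (1.4%), an overexpression site at 216 (1.43%), and a site of either list at 314 (2.08%), with 113 genes in both lists. These genes had a median length of 33.5 kb for the basal and 24.6 kb for the overexpression list, against 33.7 kb over all eligible genes. A FAIRE site within 1 kb of the gene's own start was listed for 46.0% of the genes with a basal 3′-end site (39.1 to 52.9%) and for 38.9% of all eligible genes. In the overexpression list the values were 48.6% (41.8 to 55.5%) and 40.6%, so that genes with a 3′-end site had a site at their start somewhat more often in both lists, with intervals that excluded the share of all eligible genes.

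To compare the SF-1 dosages, sites of both conditions that overlapped by at least 1 bp counted as shared. Of the basal 3′-end sites 112 (54.4%, exact interval 47.3 to 61.3%) overlapped a site of the overexpression list and 94 were basal-only. Of the overexpression 3′-end sites 108 (52.2%, 45.1 to 59.1%) overlapped a basal site and 99 were overexpression-only. Over all sites the shared part was 54.2% of the basal and 59.7% of the overexpression list. The other sites over 2 kb from a start were shared in 41.9% (basal) and 50.2% (overexpression) of cases. The difference was 12.5 percentage points (Newcombe interval 5.66 to 19.2) for basal sites and 1.95 points (−4.88 to 8.69) for overexpression sites, and sites within 1 kb of a start were shared in 76.7% and 74.2% of cases. After the other basal sites were weighted to the widths and GC contents of the 3′-end sites, 50.1% of them were shared, and after weighting to their places in the list 46.2%. Most of the basal difference thus moved with width and GC content, and their part in it was not tested further. Over 5 kb from a start, 46.3% of basal 3′-end sites were shared (37.3 to 55.6%).

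The number of 3′-end sites hardly differed between the conditions, while the other sites far from starts were fewer on SF-1 overexpression. The ratio of overexpression to basal sites was 1.00 (0.825 to 1.22) at 3′ ends and 0.833 (0.816 to 0.850) among the other sites over 2 kb from a start, and 1.03 (1.00 to 1.06) within 1 kb of a start. Of the sites found in 1 list only, there were 99 against 94 at 3′ ends, a ratio of 1.05 (0.786 to 1.41), against 0.713 (0.694 to 0.734) for the other sites. When the ratio of the other sites was taken in GC classes and applied to the basal 3′-end sites, 203.5 overexpression sites were expected, a ratio of 0.988, and 207 were found.

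Mean base composition differed between the condition-only sites, whose ranges overlapped widely. Mean GC content was 47.2 ± 10.7% (SD, n = 206 sites) in basal and 50.8 ± 9.996% (SD, n = 207 sites) in overexpressing cells, in between that of the other sites over 2 kb from a start (42.3% and 45.0%) and that of sites within 1 kb of a start (60.6% and 62.1%). Shared 3′-end sites had 50.4% (basal list) and 50.7% (overexpression list). Basal-only sites had 43.3 ± 10.6% (SD, n = 94 sites) and overexpression-only sites 50.8 ± 10.6% (SD, n = 99 sites). A GC content under 40% was found in 41 basal-only and 16 overexpression-only sites, that is 43.6% and 16.2%, and one of at least 50% in 18 (19.1%) and 51 (51.5%). The corresponding differences, overexpression-only minus basal-only, were −27.5 points (−39.2 to −14.7) and 32.4 points (19.1 to 44.1). Among sites of 50 to 60% GC, 8 were basal-only and 31 overexpression-only, a ratio of 3.88 (1.74 to 9.76), compared with 1.58 (1.46 to 1.71) among the other sites of that class. In the remaining classes the interval at 3′ ends took in the ratio of the other sites. The ratio was 2.00 (0.894 to 4.78) at 3′ ends and 2.21 elsewhere at 60% GC and over, 0.914 (0.548 to 1.52) and 0.817 at 40 to 50%, and 0.390 (0.204 to 0.711) and 0.444 (0.424 to 0.464) under 40%. The same shift with GC content thus ran through the other sites, with a mean of 40.5% in basal-only and 44.6% in overexpression-only ones. Of these other sites 53.4% and 33.2% had a GC content under 40%. With 1 library per condition, and doxycycline given to the overexpressing cells only, SF-1 dosage, the drug and differences in library composition cannot be told apart.

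**Figure D3:**
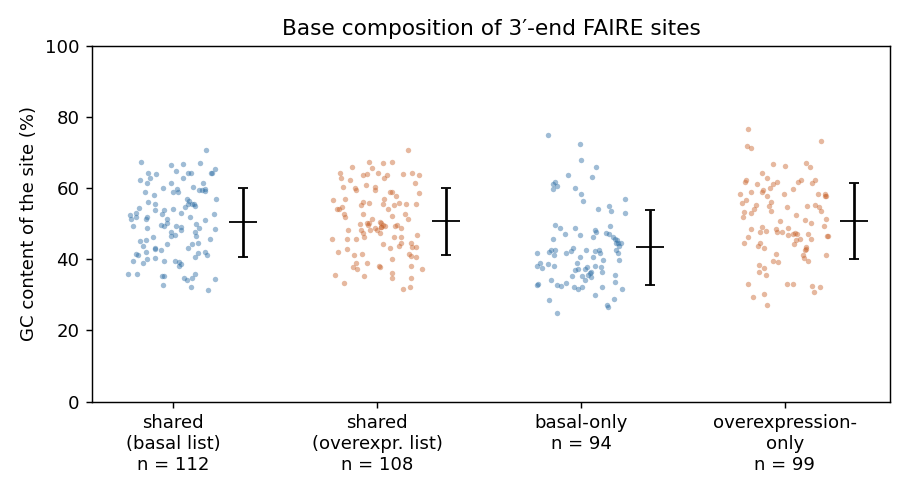
GC content in percent of the sequence (vertical axis) of each 3′-end FAIRE site, by class (horizontal axis), with the mean and SD of the sites drawn beside the points. Basal-only sites have a mean of 43.3%, and the other 3 classes have means of 50.4 to 50.8%.

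CpG dinucleotides were scarce at 3′ ends. The median ratio of observed to expected CpG was 0.265 in basal and 0.237 in overexpression 3′-end sites, close to the 0.190 and 0.186 of the other sites over 2 kb from a start and far below the 0.792 and 0.800 of sites within 1 kb of a start, many of which lie in CpG islands. Widths ran from 99 to 599 bp in the basal and from 99 to 649 bp in the overexpression list, with a median of 249 bp in both. Condition-only sites were narrower, with a median of 199 bp in either list against 249 bp for shared sites. The other sites over 2 kb from a start had the same medians of 199 and 249 bp in both lists.

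The place of a site in its list, expressed as its peak number in percent of the last one, served as a rough rank, since earlier sites were wider, although the quantity behind the order was not stated. The median place of basal 3′-end sites was 49.5% and that of overexpression 3′-end sites 49.95%, earlier than the 57.1% and 59.4% of the other sites over 2 kb from a start. The first 10% of the lists held 14 and 12 of the sites (6.80% and 5.80%), against 5.18% and 3.73% of the other sites. The last 10% held 17 and 25 (8.25% and 12.1%), against 12.6% and 12.9% of the other sites. Among the 112 overlapping pairs, the site was wider on SF-1 overexpression in 44 (39.3%), narrower in 44 (39.3%) and equal in 24, and 18 pairs had identical limits. Of the 8569 pairs of other sites over 2 kb from a start, 30.4% were wider and 45.6% narrower on SF-1 overexpression. The place differed by more than 20 points in 47 pairs (42.0%), as it did in 44.1% of the pairs of other sites.

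**Figure D4:**
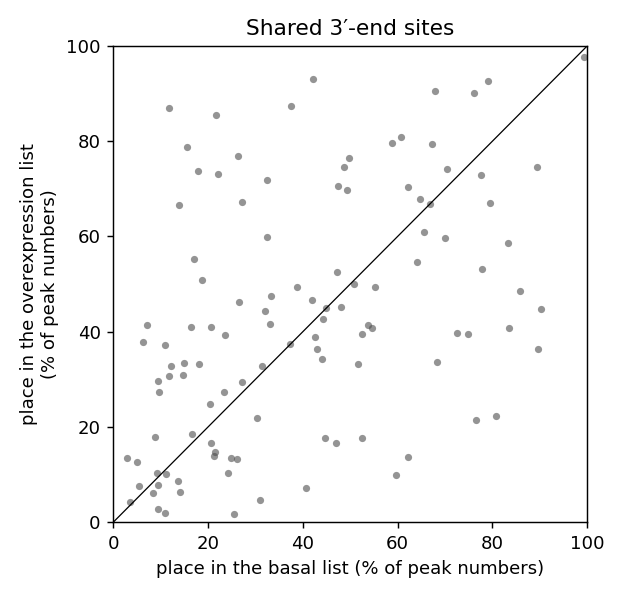
Place of each of the 112 shared 3′-end sites in the basal list (horizontal axis, percent of peak numbers) and of its partner in the overexpression list (vertical axis, percent). The line marks equal places, and in 47 pairs the places differ by more than 20 points. In 51 pairs (45.5%) the point lies below the line, earlier on SF-1 overexpression, against 40.8% of the pairs of other sites.

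The CTCF motif was the most frequent of the motifs searched. It was found in 57 basal 3′-end sites (27.7%, 21.7 to 34.3%) and 61 overexpression sites (29.5%, 23.4 to 36.2%). In flanking windows as long as the site, placed 1000 bp away on either side, it was found in 1.21% and 1.69% of windows. The other sites over 2 kb from a start had it in 20.6% and 19.2% of cases, a difference of 7.04 points (1.36 to 13.5) in basal and 10.3 points (4.46 to 16.8) in overexpressing cells. With these sites weighted to the width and GC content of the 3′-end sites, their shares were 23.5% and 22.04%, which lay inside the interval of the basal and outside that of the overexpression 3′-end sites. Over 5 kb from a start, 24.4% of basal 3′-end sites (17.1 to 33.0%) and 21.7% of overexpression 3′-end sites (14.3 to 30.8%) held it. A match is a description of the sequence, and occupancy by CTCF was not measured in these libraries.

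Shared 3′-end sites carried the CTCF motif more often than those found in 1 condition. In the basal list it was in 41 of 112 shared sites (36.6%) and 16 of 94 basal-only sites (17.0%), a difference of 19.6 points (7.42 to 30.7). In the overexpression list it was in 40 of 108 shared sites (37.0%) and 21 of 99 overexpression-only sites (21.2%), which differ by 15.8 points (3.40 to 27.5). The other sites over 2 kb from a start showed 25.5% and 25.1% in shared, and 17.1% and 13.2% in condition-only sites. Between overexpression-only and basal-only 3′-end sites the share differed by 4.19 points (−7.03 to 15.2).

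The motif was also more frequent beyond the gene end than before it, in a division made after the motif counts were seen. It was in 35 of 94 basal sites beyond the end (37.2%) and in 22 of 112 before it (19.6%), a difference of 17.6 points (5.27 to 29.5). For overexpression the numbers were 38 of 104 (36.5%) and 23 of 103 (22.3%), a difference of 14.2 points (1.78 to 26.1). Mean GC content differed less, with 48.6% beyond and 46.0% before the end in the basal list and 51.6% and 49.9% in the overexpression list. The lists share sites, so their values are not independent of each other. Of the sites that touched no annotated exon 37.1% and 38.0% held the motif, as against 23.6% and 25.0% of those that did. The match was on the strand of the gene in 28 of 57 basal sites (49.1%, 35.6 to 62.7%) and 28 of 61 overexpression sites (45.9%, 33.1 to 59.2%), so that no preferred orientation was detectable.

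The SF-1 motif was not detectably more frequent at 3′ ends than at the other sites far from starts. It was found in 31 basal sites (15.0%, 10.5 to 20.7%) against 16.6% of the other sites, a difference of −1.53 points (−5.80 to 4.01). In overexpressing cells it was in 24 sites (11.6%, 7.57 to 16.8%) against 17.1%, a difference of −5.49 points (−9.21 to −0.384). After weighting to width and GC content the shares of the other sites were 17.2% and 18.8%. The interval of the overexpression share excluded 17.1% and 18.8% in the main setting and within 250 bp of the end (7.62%, 3.35 to 14.5%). It took in 17.1% under the other settings tried, for which the other sites were not recounted. The share was then 14.8% (10.8 to 19.7%) over 1 kb and 15.1% (8.88 to 23.4%) over 5 kb from a start, 14.4% (10.9 to 18.6%) within 1000 bp of the end, 15.9% (12.4 to 19.98%) with the ends of all coding transcripts, 12.3% (8.49 to 17.2%) with gene starts alone, 13.2% (7.56 to 20.8%) in sites of at least 249 bp and 12.6% (8.37 to 17.9%) in 300 bp around the centre. The weighted 18.8%, also not recomputed, lay above the interval within 1000 bp of the end, with gene starts alone and in 300 bp around the centre. It lay inside the interval under the rest of these settings. In the flanking windows the motif share was 4.37% and 3.14%. By class, the motif was in 16 of 94 basal-only sites (17.0%) and 10 of 99 overexpression-only sites (10.1%). This difference of −6.92 points (−16.9 to 2.85) did not exceed its counting error. A higher share in overexpression-only sites by more than 2.85 points thus lay outside the interval.

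The AP-1 motif was in 19 basal sites (9.22%) and 17 overexpression sites (8.21%), against 8.43% and 6.86% of the other sites and 2.91% and 3.62% of flanking windows. Of the 8 basal-only sites with the lowest peak numbers 4 held it. Over all sites of that class the share was 9.57%, and it was 7.07% of overexpression-only sites, with −2.50 points (−10.9 to 5.63) between them. A permuted form of the SF-1 motif (GACACGCA or GACATGCA) was in 0 of 206 basal and 2 of 207 overexpression sites, and in 1.46% and 0.483% of flanking windows. The form GACACGCA holds a CpG, which is scarce in these sites. The control may therefore understate how often 8 letters of this composition occur. The NRSF/REST motif, recognised by a repressor of neuronal genes, was searched as a degenerate consensus with no mismatch and was found in 0 sites of either list, with an upper limit of 1.77%, against 0.181% and 0.170% of the other sites.

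**Figure D5:**
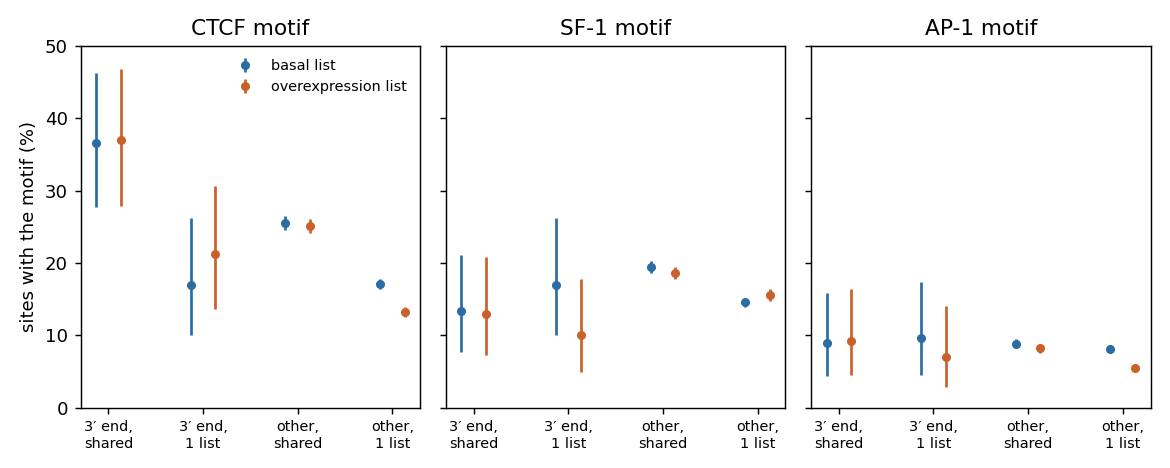
Percent of sites with the CTCF, SF-1 or AP-1 motif (vertical axis), for shared 3′-end sites, 3′-end sites found in 1 list, and the other sites over 2 kb from a start divided in the same way, with exact 95% intervals. The CTCF share in the basal and the overexpression list is 36.6% and 37.0% in shared 3′-end sites, against 25.5% and 25.1% in shared other sites. In sites found in 1 list it is 17.0% and 21.2% at 3′ ends, against 17.1% and 13.2% elsewhere.

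The shared sites that stood earliest in the basal list were at C19orf67, ISOC2, PHLDB3, PDE6A, L3MBTL3, REM2, GLIPR2 and POU5F1. The site at C19orf67 was 449 bp wide in basal cells and 349 bp on SF-1 overexpression, and its place was 2.91% of the basal and 13.6% of the other list. The ISOC2 site, centred in the 3′ UTR 148 bp before the end, measured 299 and 399 bp and kept a place of 3.61% and 4.32%. The widths of these 2 sites thus differed between the lists in opposite directions. GLIPR2 had the widest basal 3′-end site, 599 bp in both lists with the same limits, at 8.34% of the basal and 6.13% of the overexpression list. In REM2, which encodes a small GTPase, the site was 349 bp wide at 7.04% of the basal list and 299 bp at 41.5% of the overexpression list, and the printed CTCF match lay in the part that only the basal site covered. L3MBTL3, a chromatin reader of the malignant brain tumour family, had a site of 349 and 249 bp with places of 6.32% and 37.9%. At PDE6A, a phosphodiesterase subunit of rod photoreceptors, the site measured 349 and 399 bp. POU5F1 encodes the pluripotency factor OCT4, and its site of 349 and 299 bp covered the gene end and lay within TCF19.

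Among basal-only sites those with the lowest peak numbers were at ABCA1, SCD, BHLHE41, HABP4, SLCO1B1, TMEM52B, MGST2 and MRM1. ABCA1, the transporter that loads cholesterol onto apolipoprotein A-I, had a site of 349 bp across its end with a GC content of 30.1%, at 8.20% of the list. SCD encodes stearoyl-CoA desaturase, which makes monounsaturated fatty acids, and had a site of 399 bp at 11.4% of the list. The site at BHLHE41, a circadian repressor, was centred 438 bp beyond the end, was 349 bp wide and held the SF-1 motif. SLCO1B1, a hepatic anion transporter, had a site of 349 bp that lay 84640 bp from the nearest start. The site at HABP4 was 499 bp wide, the widest of these 8. For MGST2, a microsomal glutathione transferase, the site was in the 3′ UTR 124 bp before the end. By the definition of the class, none of these sites overlapped a site called on SF-1 overexpression.

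Among overexpression-only sites those with the lowest peak numbers were at SERTAD1, BSN, DOLPP1, HRK, CAPG, RDX, CRB2 and PTGIS. They stood at 7.03% to 20.2% of the list. The SERTAD1 site, 296 bp beyond the end, was 399 bp wide with a GC content of 71.4%, in contrast to the 30.1% of the ABCA1 site. The sites at HRK, a BH3-only regulator of apoptosis, at CAPG, an actin filament capping protein, and at PTGIS, the prostacyclin synthase, were each 349 bp wide. The CRB2 site lay within DENND1A, a gene of the opposite strand that ends nearby. The widest overexpression-only 3′-end site, 649 bp at PPP1R14A, an inhibitor of myosin phosphatase, was centred 2 bp beyond the gene end and stood 2022 bp from the nearest start, close to the limit of the rule, within SPINT2.

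One gene, IGSF3, an immunoglobulin superfamily member, had a different site in each condition. The basal-only site of 149 bp was centred in the 3′ UTR 404 bp before the end, and the overexpression-only site of 299 bp was centred 171 bp beyond it. Both held a CTCF match with 1 mismatch, as printed. They stood at 48.1% and 42.0% of their lists.

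No gene listed under steroid synthesis and adrenal function had such a site. That list left out ABCA1, SCD, PNPLA3, MVK, LSS, CYP27A1 and LIPA. These sterol and lipid genes had one and were picked after their values were seen. Of 56 eligible genes of steroid synthesis and adrenal function 0 carried a 3′-end site in either list (0%, upper limit 6.38%), against 2.08% of all eligible genes, so that a share of the background size was not excluded at this number. Likewise 0 of 39 eligible nuclear receptor genes, 0 of 41 collagen genes, 0 of 57 protocadherin genes, 0 of 60 forkhead and SOX genes, 0 of 20 HOX genes, 0 of 18 core histone genes and 0 of 10 genes of the insulin-like growth factor system had one. A site was found at 5 of 421 zinc finger genes of the ZNF class, 5 of 301 solute carrier genes, 1 of 78 potassium channel genes, 2 of 43 ribosomal protein genes and 2 of 29 genes for Wnt ligands and Frizzled receptors. The Wnt genes were WNT11, whose shared site measured 299 bp in basal and 449 bp in overexpressing cells, and WNT3, whose basal-only site of 349 bp covered the gene end. The ribosomal protein genes were RPL38 and RPSA, both with overexpression-only sites, of 249 and 99 bp.

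Genes that the study listed from expression arrays of other samples of this cell line were counted in the same way. Of 142 eligible genes higher on SF-1 overexpression 4 had a 3′-end site (2.82%, 0.773 to 7.06%), and of 77 genes lower on overexpression 1 had one (1.30%, 0.0329 to 7.02%). Of 104 genes lower on SF-1 knockdown 3 had one (2.88%, 0.599 to 8.20%), and of 64 genes higher on knockdown 0. All 4 intervals held the 2.08% of all eligible genes. The 4 genes higher on overexpression were ELOVL3, GJA3, OAF and TMEM200A. ELOVL3 elongates very long chain fatty acids, was also among the genes lower on knockdown, and ended beside the overexpression-only site printed with PITX3. GJA3, a connexin gene, had an overexpression-only site of 249 bp, OAF a basal-only site of 199 bp, and TMEM200A a shared site of 299 bp in both lists. The gene lower on overexpression was BHLHE41, with the basal-only site described above. The other genes lower on knockdown were L3MBTL3 and CLRN1, which encodes a hair cell and retinal membrane protein and had an overexpression-only site of 149 bp with a CTCF match without mismatch.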

How the data were processed

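FAIRE-seq was analysed in H295R/TR SF-1 cells with basal or overexpressed SF-1, 1 library each, grouped per the labels. Input DNA was not analysed here. Each deposited list held positions on a grid of 50 bp, a peak number that runs with file order, and a score, which the authors set to 1000 throughout and which was not used. The submitters' processing notes name CASAVA 1.8 and hg19. The authors aligned their ChIP reads with ELAND and called those peaks with CisGenome, while for FAIRE the aligner, caller and threshold are not given in the sources used here. The lists hold no read counts, so depth is unknown.

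Coordinates are 1-based on GRCh37, and genes are from GENCODE release 44 mapped to it. Positions were classified by the site centre. Expected numbers were computed from sequence lengths, without random draws. Shares have exact (Clopper-Pearson) intervals, site numbers exact Poisson intervals, ratios of site numbers exact binomial intervals and differences between shares Newcombe intervals. No test between conditions and no p-value was computed. The computation was tested on simulated sites. Named were the 8 members of lowest peak number in each class (shared in the basal list, found in 1 list), the widest member of each list, members at genes of the array lists or the steroidogenic list, and genes with condition-only members of both kinds. Further genes are examples of a list or of a kind of site. The members, gene lists and examples were chosen with earlier results of these data known. Genes changed on SF-1 knockdown or overexpression were read from the study's array lists, as names only. Alternatives changed the distance limits, the annotation, the overlap, the widths kept, the expectation and the motif window. Python 3.11.15, pandas 2.3.3, scipy 1.17.1 and pysam 0.24.0 were used.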

Additional observations from a re-analysis of the deposited data

How the results depend on the processing

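Of 142 values recomputed for 19 results under other settings, 117 moved by less than their counting interval or 1.5 times and 25 moved more. At 3′ ends the overexpression list held 0.862 to 1.06 times as many sites as the basal list, on both sides of 1. With 250 bp from the gene end 106 basal and 105 overexpression sites remained, and with 1000 bp there were 353 and 347, with an observed to expected ratio of 1.13 in the overexpression list. Over 5 kb from a start there were 123 and 106 sites, of which 46.3% of the basal ones were shared, with mean GC contents of 45.0% and 48.2% and a CTCF share of 21.7% in the overexpression list. With the end of any coding transcript there were 407 and 383 sites, the ratio was 1.12 in the overexpression list and mean GC content was 45.6% in the basal list. Sites of at least 249 bp numbered 108 and 114, with an AP-1 share of 14.0% in the overexpression list. The density of the other sites gave ratios of 1.86 and 2.20, and that within GC classes, an alternative added after seeing the data, as were all weighted shares, gave 1.78 and 1.91. The cause of these changes was not tested. With 1 library per condition and no read counts, no library could be left out, and differences in depth between the lists were not corrected for. No paired analysis was possible because each condition has 1 library.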

Other observations

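The share of eligible genes with a 3′-end site varied over the chromosomes. It was 3.71% on chromosome 20, 3.54% on chromosome 9, 3.50% on chromosome 19 and 3.03% on chromosome 6. On chromosomes 13 and 21 it was 0.733% and 0.680%, from 2 and 1 genes. No test was made of these shares.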
